A study of Mus musculus with 17 samples.

Results

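The 44 genes described here encode proteins of the synaptic vesicle and of the active zone, the patch of presynaptic membrane where vesicles fuse. They were chosen by name, their symbols were matched to the Ensembl identifiers of the files, and all 44 were found among 46073 genes. Polyadenylated RNA of frontal cortex from FVB/N males was sequenced, and each gene has 1 value per library in FPKM, reads per kilobase of transcript scaled to library size, so levels can be set side by side between genes. The dTgDox group (n = 3) carried both transgenes of the dTg-211 line, a CamK driver and a miR-211 transgene under the pTRE promoter, and received doxycycline for 4 days. The dTg group (n = 7) carried the same pair of transgenes without the drug. The Ct group (n = 6) carried the CamK driver alone, so all 3 groups share the driver. CamK promoters are active in forebrain excitatory neurons, and pTRE responds to a doxycycline-regulated activator, but the labels do not say whether the drug switches this one on or off. Ct mice given doxycycline were not analysed here, so an effect of the drug itself and an effect through the transgene cannot be told apart. A library labelled NTg, with pTRE-miR-211 but not CamK, held the same 46073 values as dTg replicate 1. The pair was kept apart as 1 library by the rule that set the 44 genes, and dTg below means replicates 2 to 7 (n = 6). The cerebellar markers of the library kept apart were far above those of the others.

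The 16 distinct libraries held an estimated 19.9 to 28.0 M reads, and 15762 to 16085 genes reached 1 FPKM in each. The gene of the transgene product, Mir211, was listed at 0 except for 21.6 FPKM in dTg replicate 2 and 24.8 FPKM in replicate 5 of that group. Libraries of polyadenylated RNA do not hold mature microRNA, so its amount was not measured. Markers of cortical excitatory neurons were present in all 15 libraries of the 3 groups, with a mean log2 level of 4.45 to 5.25. The header lines of dTg replicates 5 to 7 carry 1 shared number, and the labels do not say whether they are separate mice, so p-values measure the spread between these libraries.

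Synaptic vesicles are filled with transmitter, tethered at the active zone by scaffolds such as RIM, Munc13, Bassoon and Piccolo, and primed for release. Calcium entering the terminal is sensed by synaptotagmins and Doc2 proteins, and the SNARE proteins syntaxin, SNAP-25 and synaptobrevin then drive fusion. Vesicle membrane is recovered by dynamin, endophilin, amphiphysin and synaptojanin. Most of these proteins come in families whose members differ in calcium affinity, speed or brain region.

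The sequence of miR-211 is given first because a microRNA lowers transcripts whose 3' untranslated region pairs with its seed, bases 2 to 8. The capitals mark the seed in the mature sequence, from RefSeq on build GRCm38.p6.
mmu-miR-211-5p, chr7:64205831-64205852, plus strand: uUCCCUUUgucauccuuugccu
The strongest match to this seed, an 8-base site, was found in the annotated 3' untranslated regions of 6 of the 44 genes, 13.6%, against 7.08% of 14333 tested genes with such a region. The median length of these regions was 2380 bases in the 44 genes and 1183 bases in all tested genes. The 7 sites are shown with the matching bases in capitals, because the product of the transgene could pair with such sites. Coordinates and annotation are those of GENCODE M21 on GRCm38.
Doc2b, chr11:75769659-75769688, minus strand: acatctctactAAAGGGAAaaggtcctttg
Rab3c, chr13:110059443-110059472, minus strand: aggtaggagagAAAGGGAAacaaccacgtt
Rab3c, chr13:110059728-110059757, minus strand: gaaattaacatAAAGGGAAagagagaagtg
Rims2, chr15:39684236-39684265, plus strand: tgttttcaagtAAAGGGAAttccagttggg
Syp, chrX:7652391-7652420, plus strand: tgtggagcctaAAAGGGAAgtggtgtccta
Syt7, chr19:10451456-10451485, plus strand: aactgaagacaAAAGGGAAaaagaaccata
Vamp1, chr6:125220329-125220358, plus strand: gagttgtggccAAAGGGAAggagggggccg
Rab3c holds a pair of 8-base sites, and the others hold 1 each. Doc2b, Rab3c, Syp and Syt7 also hold a 7-base site. Any 7-base or 8-base site was found in 18 of the 44 genes, 40.9%, against 24.8% of the tested genes with such a region. A match is a description of the letters and does not show binding.

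The comparison of dTg with Ct sets untreated carriers of both transgenes beside carriers of the driver alone. The labels do not say whether the transgene is active without the drug, and mature miR-211 was not measured. A lack of difference therefore does not show that miR-211 leaves the 44 transcripts unchanged. Differences are given on the scale of log2(FPKM + 0.5), and a gene was called changed at an adjusted p under 0.05 in limma, over 19064 tested genes. Of the 44 genes 0 were called in either direction and 1 had an unadjusted p under 0.05, beside 0.0% of all tested genes called and 3.18% at the unadjusted level. That gene was Syn3, with a dTg minus Ct difference of -0.15 (SE 0.05, limma adjusted p = 1.0). The differences of all 44 lay between -0.41 and 0.39, with a median of -0.01. In 0 of 44 genes did the dTg and Ct libraries separate without overlap, beside 0.131% of all tested genes, 0.0787% higher and 0.0525% lower. The 6 genes with an 8-base site had differences of -0.13 to 0.05. Their median was 0.0019, against -0.01 in the 26 genes without any 7-base or 8-base site. The median of the 18 genes with any such site was -0.008. Doc2b, whose site stands first above, had 2.35, 3.33 and 5.72 FPKM as lowest, median and highest value in dTg and 1.22, 4.21 and 7.98 FPKM in Ct. Its dTg and Ct libraries overlapped almost fully, and the same held for Rab3c, with 45.8 to 68.7 FPKM in dTg and 48.5 to 64.5 FPKM in Ct.

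In dTgDox libraries 11 of the 44 genes were called against dTg, 10 lower and 1 higher, which is 25.0% of the genes beside 18.9% of all tested genes. The lower genes were 22.7% of the 44, beside 9.22% of all tested genes, and the higher one 2.27%, beside 9.65%. At an unadjusted limma p under 0.05 there were 19 genes in each dTgDox comparison, beside 32.0% of all tested genes against dTg and 32.6% against Ct. Lower were the calcium sensors Doc2a, Syt1 and Syt5, the synaptotagmin Syt12, the SNAREs Stx1a and Vamp2, the active zone proteins Rims2, Rims3 and Unc13a, and the synapsin Syn1. Doc2b alone was higher. Against Ct 13 genes were called, 12 lower and 1 higher, or 29.5% beside 19.7% of all tested genes, and by direction beside 9.85% lower and 9.86% higher. These were the same 11 genes, in the same direction, with Syn3 and Sv2b added. Both comparisons use the same 3 dTgDox libraries, so their calls are not independent, and 15.6% of all tested genes were called in the same direction in both. The median difference of the 44 genes was -0.14 in each comparison, and that of all tested genes was -0.01. Libraries separated without overlap in 11 genes that were lower and 2 that were higher than dTg, beside 10.9% and 11.3% of all tested genes, 22.2% in all. Against Ct the numbers were 13 lower and 1 higher, beside 11.8% and 11.5%, 23.4% in all. Without dTgDox replicate 3 the lower genes numbered 5 against dTg and 7 against Ct, and without dTgDox replicate 2 they numbered 7 in each. In tissue RNA, fewer cells of a type and less RNA per cell cannot be told apart.

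**Figure D1:**
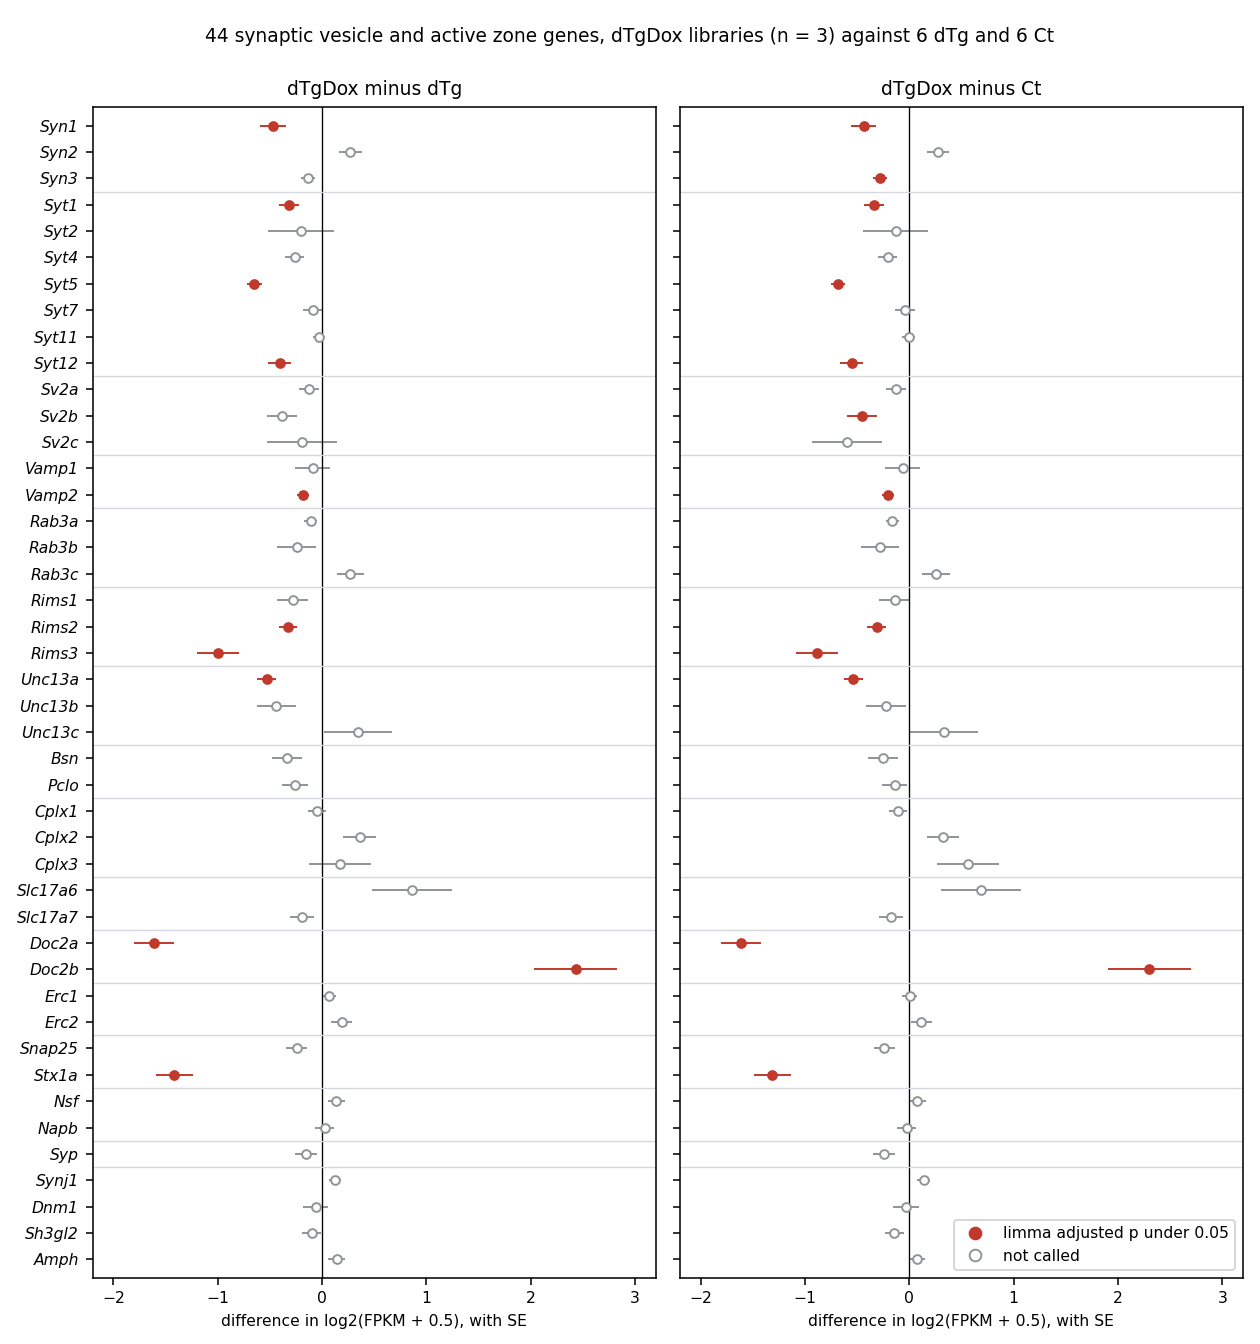
Differences of the 44 genes in log2(FPKM + 0.5), dTgDox minus dTg on the left and dTgDox minus Ct on the right, with the standard error of the fit. Filled points are called by limma at an adjusted p under 0.05. Doc2a, Stx1a and Rims3 lie furthest to the left and Doc2b furthest to the right in both panels.

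Marker levels of other cell types moved with the same 3 libraries and are given here because they bear on every dTgDox value below. The 14 markers of hippocampal CA pyramidal cells had a mean log2 level of 4.38 to 4.68 in dTgDox, 2.30 to 2.51 in dTg and 2.20 to 2.58 in Ct, and 11 of the 13 that could be tested rose against dTg. The 11 markers of dentate granule cells had 3.31 to 3.43 in dTgDox, 1.66 to 1.88 in dTg and 1.68 to 1.86 in Ct, and 7 rose. Their defining marker Prox1 had 9.73 to 11.3 FPKM in dTgDox, 1.58 to 2.23 FPKM in dTg and 1.58 to 1.85 FPKM in Ct. The summed FPKM of the CA list was 409 to 480 in dTgDox, 116 to 134 in dTg and 114 to 133 in Ct. Markers of oligodendrocytes had a mean log2 level of 6.71 to 7.35 in dTgDox, 5.41 to 6.82 in dTg and 5.55 to 6.62 in Ct, and 1 of 10 rose against dTg. Markers of astrocytes had 6.45 to 6.66 in dTgDox, 6.01 to 6.38 in dTg and 5.98 to 6.20 in Ct, with dTgDox above all 12 dTg and Ct libraries. In each comparison 4 of 10 astrocyte markers rose and 1 fell. Gfap had 127 to 276 FPKM in dTgDox, 20.01 to 42.0 FPKM in dTg and 19.0 to 49.0 FPKM in Ct. Markers of thalamus had 1.503 to 2.25 in dTgDox, 1.06 to 1.40 in dTg and 0.935 to 1.93 in Ct, and 3 of 10 rose and 1 fell in each comparison. Of the microglial markers 3 of 10 rose against dTg and 4 against Ct. Markers of GABA interneurons were at 5.04 to 5.30 in dTgDox, 5.52 to 5.603 in dTg and 5.47 to 5.75 in Ct, and markers of cortical excitatory neurons at 4.45 to 4.78, 4.82 to 5.13 and 4.72 to 5.25 in the same order. Against dTg 3 of 16 interneuron markers fell and 1 rose, and 4 of 15 excitatory markers fell and 2 rose. In the same order striatal markers were at 2.57 to 2.69, 2.62 to 4.84 and 2.71 to 5.70. Olfactory bulb markers were at 1.48 to 1.62, 1.46 to 4.42 and 1.66 to 5.12. In each of these lists 1 of 10 fell against dTg and 0 rose. Of all tested genes 9.65% rose and 9.22% fell against dTg, and 9.86% and 9.85% against Ct. Choroid plexus markers stood at 3.95 in dTgDox replicate 3 and at 1.298 or below in the other 14 libraries. No list had a marker at 0 in all 15 libraries. The part of these shifts in the results on vesicle genes was not tested.

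**Figure D2:**
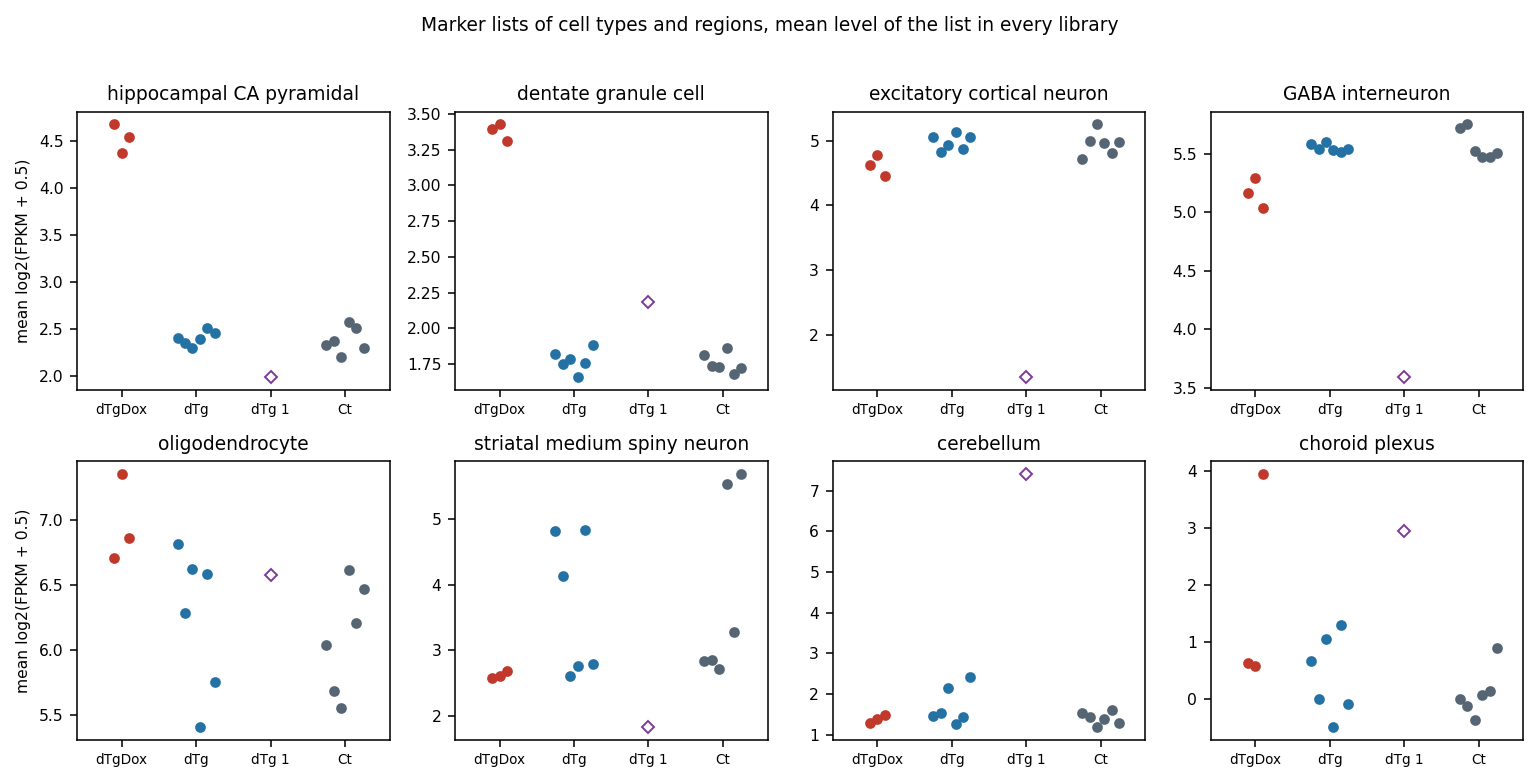
Mean log2(FPKM + 0.5) of the markers of 8 cell types or regions in every library, with dTgDox, dTg, dTg replicate 1 and Ct from left to right. The hippocampal lists are high in the 3 dTgDox libraries, the cerebellar list in dTg replicate 1, and the striatal list in dTg replicates 2, 3 and 6 and Ct replicates 4 and 6.

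The most abundant of the 44 transcripts in Ct was Snap25, at 1403 ± 206 FPKM (SD, n = 6), followed by Syp at 631 ± 73.1 and Vamp2 at 531 ± 36.3 FPKM. The lowest were Unc13c at 3.99 ± 2.36, Cplx3 at 4.15 ± 0.323 and Doc2b at 4.39 ± 2.36 FPKM. All 44 passed the filter of 0.5 FPKM in at least 3 libraries.

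Doc2a and Doc2b, soluble C2-domain proteins that sense calcium with high affinity and act in spontaneous and asynchronous release, changed in opposite directions. Doc2a (ENSMUSG00000052301, chromosome 7, 126847416 to 126852705) had 11.7, 14.6 and 9.44 FPKM in dTgDox. In dTg its lowest, median and highest values were 28.0, 35.6 and 48.4 FPKM, and in Ct they were 29.5, 35.9 and 54.8 FPKM. Every dTgDox library lay far below each of the 12 dTg and Ct libraries. The difference was -1.61 against dTg (SE 0.19, limma adjusted p = 5.58e-05) and -1.62 against Ct (limma adjusted p = 4.98e-05). Doc2b (ENSMUSG00000020848, chromosome 11, 75768966 to 75796049) had 22.9, 20.9 and 19.2 FPKM in dTgDox, against a highest value of 5.72 FPKM in dTg and 7.98 FPKM in Ct. The 3 dTgDox libraries stood above all 12 others. The difference was 2.43 against dTg (SE 0.40, limma adjusted p = 0.000809) and 2.30 against Ct (limma adjusted p = 0.0012). Of the summed Doc2 FPKM, Doc2b made up 64.0% ± 4.54 in dTgDox (SD, n = 3), 9.32% ± 4.49 in dTg and 10.97% ± 5.97 in Ct (SD, n = 6 each). The summed FPKM of the pair was 28.6 to 35.5 in dTgDox, 33.8 to 50.8 in dTg and 35.1 to 56.0 in Ct, so the sum overlapped between the groups where the single genes did not. Exons of Doc2a overlap those of Ino80e on the opposite strand over 39.4% of their bases, as do those of Syt12, Syp, Syt4 and Syn3 with antisense genes over 17.2%, 16.8%, 14.5% and 14.1%. The strand setting of the read counting was not stated, so reads of such pairs cannot be told apart.

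The plasma membrane SNARE syntaxin 1A fell as well. Stx1a (ENSMUSG00000007207, chromosome 5, 135023482 to 135051100) had 63.7, 60.9 and 48.0 FPKM in dTgDox. Its lowest, median and highest values were 118, 162 and 183 FPKM in dTg and 116, 134 and 185 FPKM in Ct. All dTgDox libraries lay far below the lowest of the 12 others. The difference was -1.41 against dTg (SE 0.17, limma adjusted p = 7.09e-05) and -1.31 against Ct (limma adjusted p = 0.000124). Its partner Snap25 was not called, although its dTgDox libraries, at 1139.7 to 1246 FPKM, lay below all dTg libraries, at 1288 to 1540 FPKM, with a difference of -0.24 (SE 0.10, limma adjusted p = 0.108).

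The vesicle SNARE synaptobrevin 2, Vamp2 (ENSMUSG00000020894, chromosome 11, 69088490 to 69092384), had 475, 477 and 431 FPKM in dTgDox. It had 497, 531 and 544 FPKM as lowest, median and highest value in dTg and 485, 537 and 579 FPKM in Ct. The groups separated, but by a margin smaller than the spread within Ct. The difference of -0.18 against dTg (SE 0.06, limma adjusted p = 0.0452) was the smallest called. Vamp1, the form common in spinal cord and brainstem, was not called, with a difference of -0.09 (SE 0.17). Of the proteins that act on SNARE complexes, Nsf, the ATPase that takes them apart, and Napb, its beta-SNAP adaptor, differed by 0.13 and 0.02 from dTg and were not called. The complexins, which clamp and activate SNARE complexes, were not called either. Cplx2 had 316, 295 and 288 FPKM in dTgDox, all above the highest dTg value of 276 FPKM, while in Ct its range of 170 to 310 FPKM took in 2 of the 3 dTgDox values. Cplx1 differed by -0.05 and Cplx3, a form of ribbon synapses and of deep cortical neurons, by 0.17.

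**Figure D3:**
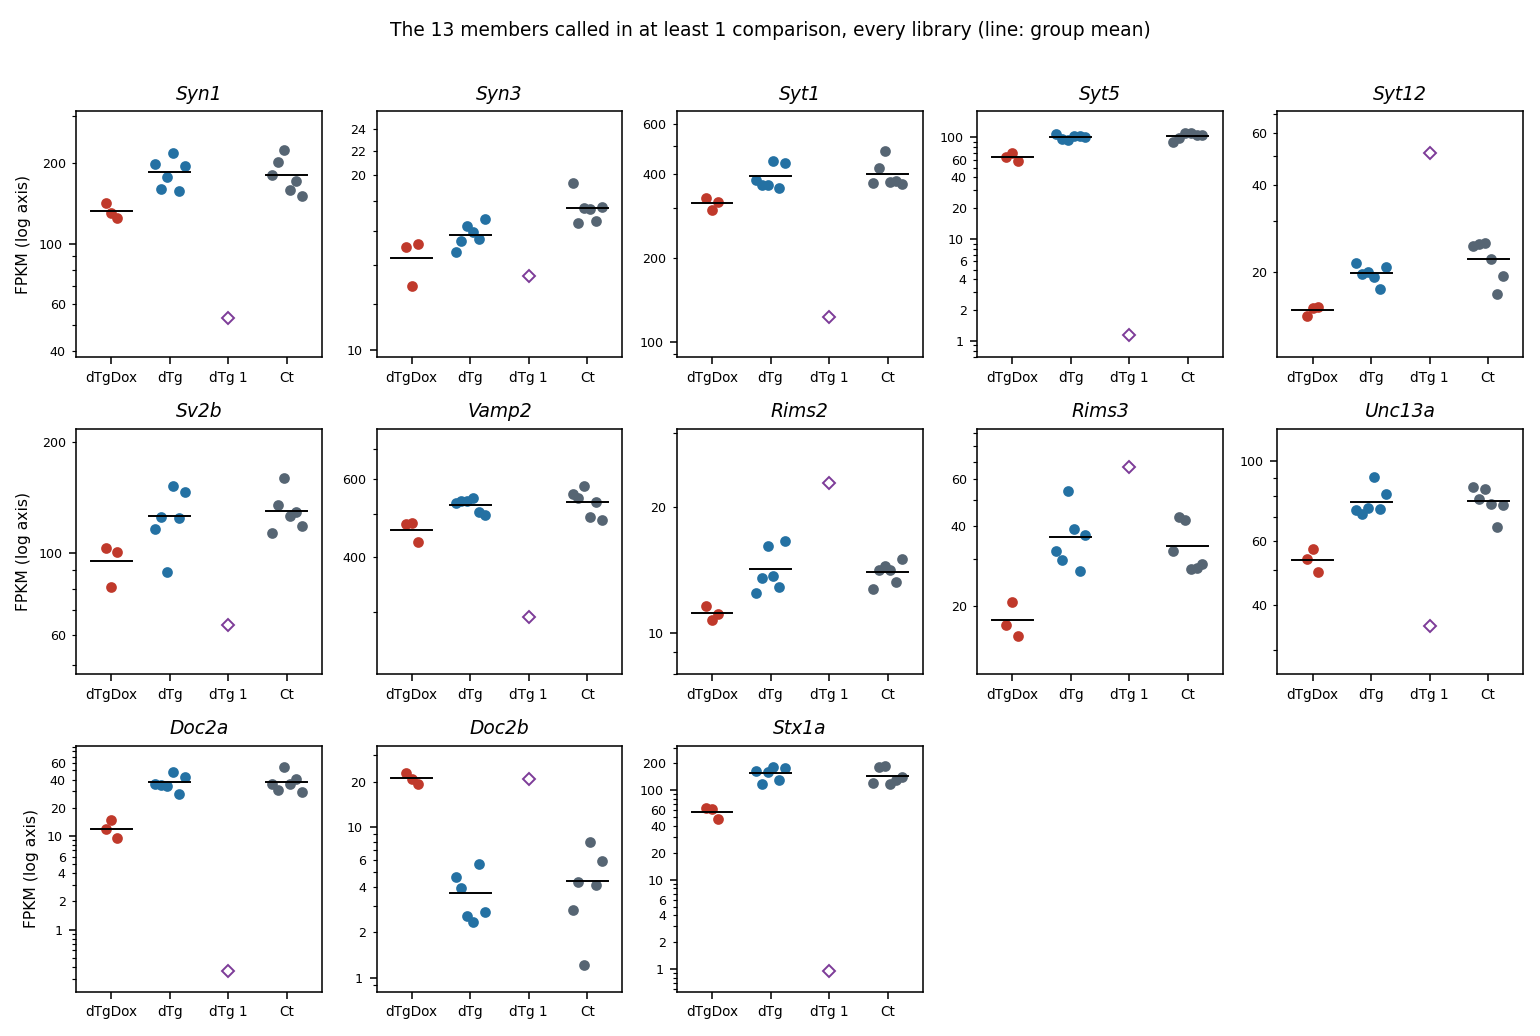
FPKM on a log axis of the 13 genes called in at least 1 comparison, with 1 point per library and the group mean as a line. dTgDox stands on the left, dTg and dTg replicate 1 in the middle and Ct on the right. Doc2a, Doc2b and Stx1a show the widest gaps between dTgDox and the other groups. Among genes that separate from both groups Vamp2 has the narrowest gap, and Syn3 and Sv2b overlap with dTg.

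Promoters are shown for 4 genes that fell in both comparisons, have a single RefSeq entry and belong to families with other members not called. Shared regulation of the 4 genes was not tested. Each promoter runs from 250 bases before the start of the gene to 50 after it, on GRCm38.p6. Capitals mark the GC box GGGCGG, the cAMP response element TGACGTCA and the Egr site GCGTGGGCG on either strand.
Rims3, chr4:120854549-120854848, plus strand: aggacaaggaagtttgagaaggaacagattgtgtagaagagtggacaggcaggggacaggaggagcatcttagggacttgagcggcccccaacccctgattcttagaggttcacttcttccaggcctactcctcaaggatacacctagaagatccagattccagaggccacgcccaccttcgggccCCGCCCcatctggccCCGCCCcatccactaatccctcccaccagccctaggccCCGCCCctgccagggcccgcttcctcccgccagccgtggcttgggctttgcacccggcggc
Stx1a, chr5:135023232-135023531, plus strand: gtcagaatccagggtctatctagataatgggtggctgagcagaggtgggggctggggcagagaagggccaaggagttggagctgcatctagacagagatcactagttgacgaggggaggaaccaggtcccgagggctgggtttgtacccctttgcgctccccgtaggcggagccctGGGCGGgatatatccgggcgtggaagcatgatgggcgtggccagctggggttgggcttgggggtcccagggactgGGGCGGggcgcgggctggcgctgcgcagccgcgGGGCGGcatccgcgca
Syn1, chrX:20920869-20921168, minus strand: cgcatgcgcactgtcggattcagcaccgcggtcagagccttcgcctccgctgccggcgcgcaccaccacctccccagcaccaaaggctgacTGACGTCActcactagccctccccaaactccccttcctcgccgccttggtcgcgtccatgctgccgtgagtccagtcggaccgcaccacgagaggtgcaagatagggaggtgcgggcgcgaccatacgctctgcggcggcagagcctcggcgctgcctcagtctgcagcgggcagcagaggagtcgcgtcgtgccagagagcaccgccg
Unc13a, chr8:71671708-71672007, minus strand: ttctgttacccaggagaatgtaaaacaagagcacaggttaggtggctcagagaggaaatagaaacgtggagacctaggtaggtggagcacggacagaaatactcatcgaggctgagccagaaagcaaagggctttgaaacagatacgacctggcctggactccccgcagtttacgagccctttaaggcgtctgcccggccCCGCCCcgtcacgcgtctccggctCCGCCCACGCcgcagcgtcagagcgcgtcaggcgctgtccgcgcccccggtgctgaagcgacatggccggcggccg
Rims3 and Stx1a hold 3 GC boxes each and Unc13a holds 2. The last GC box of Unc13a overlaps its Egr site. Syn1 holds no GC box and 1 cAMP response element. RefSeq entries matched 34 of the 44 genes, with 43 promoters in all. The GC box was in 65.1% of the 43 and in 35.7% of 32851 mouse promoters of that length. The cAMP response element was in 4.65% and 1.79%, and the Egr site in 4.65% and 0.612%. The median GC content was 62.0% in the 43 promoters and 52.7% in all. Sh3gl2, which was not called, also holds a cAMP response element, and Synj1, also not called, an Egr site.

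Among the RIM proteins, scaffolds that bind Rab3, Munc13 and calcium channels, Rims2 and Rims3 fell in both comparisons. Rims3 (ENSMUSG00000032890, chromosome 4, 120854816 to 120896579), a short form that lacks the Rab3-binding part of the long RIMs, had 17.0, 20.8 and 15.4 FPKM in dTgDox. Its lowest, median and highest values were 27.2, 34.5 and 54.2 FPKM in dTg and 27.5, 30.5 and 43.2 FPKM in Ct. The dTgDox libraries lay below all others. The difference was -0.99 against dTg (SE 0.20, limma adjusted p = 0.00324) and -0.89 against Ct (limma adjusted p = 0.00644). Rims2 (ENSMUSG00000037386, chromosome 15, 39198261 to 39684372) had 11.6, 10.7 and 11.1 FPKM in dTgDox, against 12.4 to 16.6 FPKM in dTg and 12.7 to 15.03 FPKM in Ct. These groups separated narrowly, with a difference of -0.33 against dTg (SE 0.09, limma adjusted p = 0.0171) and -0.31 against Ct. Rims1, the most abundant of the 3, had 55.4 to 66.2 FPKM in dTgDox, 59.4 to 91.6 FPKM in dTg and 52.3 to 80.6 FPKM in Ct, overlapped in both comparisons and was not called (-0.28, SE 0.15). Rims4, a second short RIM from the companion list, was called lower, with differences of -0.55 against dTg and -0.51 against Ct. Rims3 made up 20.2% ± 3.23 of the RIM sum in dTgDox (SD, n = 3), 29.3% ± 2.23 in dTg and 29.6% ± 4.19 in Ct (SD, n = 6 each).

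Munc13 proteins prime vesicles for fusion, and of the 3 only Unc13a was called. Unc13a (ENSMUSG00000034799, chromosome 8, 71624417 to 71671757) had 53.4, 57.1 and 49.2 FPKM in dTgDox. It had 71.5, 73.8 and 90.5 FPKM as lowest, median and highest value in dTg and 65.6, 77.5 and 84.7 FPKM in Ct. The highest dTgDox value lay below the lowest of the 12 others. The difference was -0.53 in both comparisons (SE 0.09, limma adjusted p = 0.000737 against dTg and 0.000712 against Ct). Unc13b, the form used at a minority of cortical and hippocampal synapses, had a difference of -0.44 against dTg (SE 0.19, limma adjusted p = 0.119). Unc13c, the cerebellar form, had 3.72 to 5.30 FPKM in dTgDox, 2.70 to 4.79 FPKM in dTg and 2.02 to 7.04 FPKM in Ct, and was not called. Its high Ct values, 7.04 and 6.98 FPKM, were those of replicates 4 and 6, the libraries with striatal marker levels of 5.54 and 5.70 on the log2 scale, against 3.28 or below in the other Ct libraries. In dTg the order was not the same. There replicates 2 and 6, with striatal levels of 4.82 and 4.84, had 3.63 and 3.66 FPKM. The highest dTg value, 4.79 FPKM, was that of replicate 4, with a striatal level of 2.62. The cause of this spread was not tested.

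The giant scaffolds Bassoon and Piccolo and the ELKS proteins were not called. Bsn differed by -0.33 from dTg (SE 0.14, limma adjusted p = 0.119) and Pclo by -0.26 (SE 0.12, limma adjusted p = 0.163). Erc1 and Erc2 differed by 0.07 and 0.19. Erc1 varied little in any group, with a coefficient of variation of 4.78% in Ct.

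Among the synaptotagmins, vesicle proteins of which many sense calcium, Syt5 had the smallest adjusted p of the 44 genes. Syt5 (ENSMUSG00000004961, chromosome 7, 4539765 to 4547541) had 63.9, 69.2 and 58.6 FPKM in dTgDox. Its lowest, median and highest values were 93.3, 102 and 106 FPKM in dTg and 89.6, 105 and 109 FPKM in Ct. The dTgDox libraries lay below the 12 dTg and Ct libraries. The difference was -0.65 against dTg (SE 0.07, limma adjusted p = 2.34e-05) and -0.68 against Ct (limma adjusted p = 1.32e-05). Syt1 (ENSMUSG00000035864, chromosome 10, 108497650 to 109010982), the main fast sensor of forebrain synapses, had 327, 296 and 315 FPKM in dTgDox, against 355 to 444 FPKM in dTg and 367 to 480 FPKM in Ct. Its groups separated, with differences of -0.32 against dTg and -0.34 against Ct (SE 0.09 each, limma adjusted p = 0.03 and 0.0203). Syt12 (ENSMUSG00000049303, chromosome 19, 4445908 to 4477447), a vesicle synaptotagmin that does not bind calcium, had 14.2, 15.1 and 15.2 FPKM in dTgDox, 17.5 to 21.5 FPKM in dTg and 16.8 to 25.1 FPKM in Ct. Its differences were -0.41 and -0.55 (SE 0.11 each, limma adjusted p = 0.0188 and 0.0028).

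The other 4 synaptotagmins were not called. Syt7, a high-affinity sensor of slow release, had 42.3 to 45.4 FPKM in dTgDox, 42.9 to 52.3 FPKM in dTg and 38.2 to 52.8 FPKM in Ct, a difference of -0.09 from dTg. Syt11, which does not bind calcium, differed by -0.03 (SE 0.06), and its share of the synaptotagmin sum was 29.0% ± 1.22 in dTgDox (SD, n = 3), 24.8% ± 2.06 in dTg and 24.2% ± 1.10 in Ct (SD, n = 6 each). Syt4 differed by -0.26 (SE 0.09, limma adjusted p = 0.059). Syt2, the fast sensor of brainstem and of parvalbumin interneurons, differed by -0.20 (SE 0.32), and varied widely within each group, from 7.09 to 14.0 FPKM in dTgDox, 7.51 to 19.6 FPKM in dTg and 5.66 to 14.1 FPKM in Ct.

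Synapsins coat vesicles and hold them in a reserve pool, and of the 3 Syn1 fell in both comparisons. Syn1 (ENSMUSG00000037217, chromosome X, 20860511 to 20921004) had 141, 130.2 and 125 FPKM in dTgDox. Its lowest, median and highest values were 157, 186 and 218 FPKM in dTg and 151, 175 and 223 FPKM in Ct. The groups did not overlap, and the differences were -0.47 against dTg and -0.44 against Ct (SE 0.12 each, limma adjusted p = 0.0146 and 0.0208). Syn2 had 200.5, 158 and 193 FPKM in dTgDox, 138 to 179 FPKM in dTg and 131 to 181 FPKM in Ct. It was not called (difference 0.27, SE 0.11, limma adjusted p = 0.0918), and dTgDox replicate 2 lay inside the dTg range. Syn1 was the larger of the pair in all 12 dTg and Ct libraries and Syn2 in all 3 dTgDox libraries. Syn1 made up 40.1% ± 2.93 of the synapsin sum in dTgDox (SD, n = 3), 52.3% ± 1.79 in dTg and 51.5% ± 1.798 in Ct (SD, n = 6 each). Syn3 (ENSMUSG00000059602, chromosome 10, 86055125 to 86498896) was called only against Ct, with 15.03, 12.9 and 15.2 FPKM in dTgDox and 16.5, 17.5 and 19.4 FPKM as lowest, median and highest value in Ct, a difference of -0.28 (SE 0.07, limma adjusted p = 0.00896). In dTg it had 14.7 to 16.8 FPKM, and its difference from dTg was -0.13 (limma adjusted p = 0.184).

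**Figure D4:**
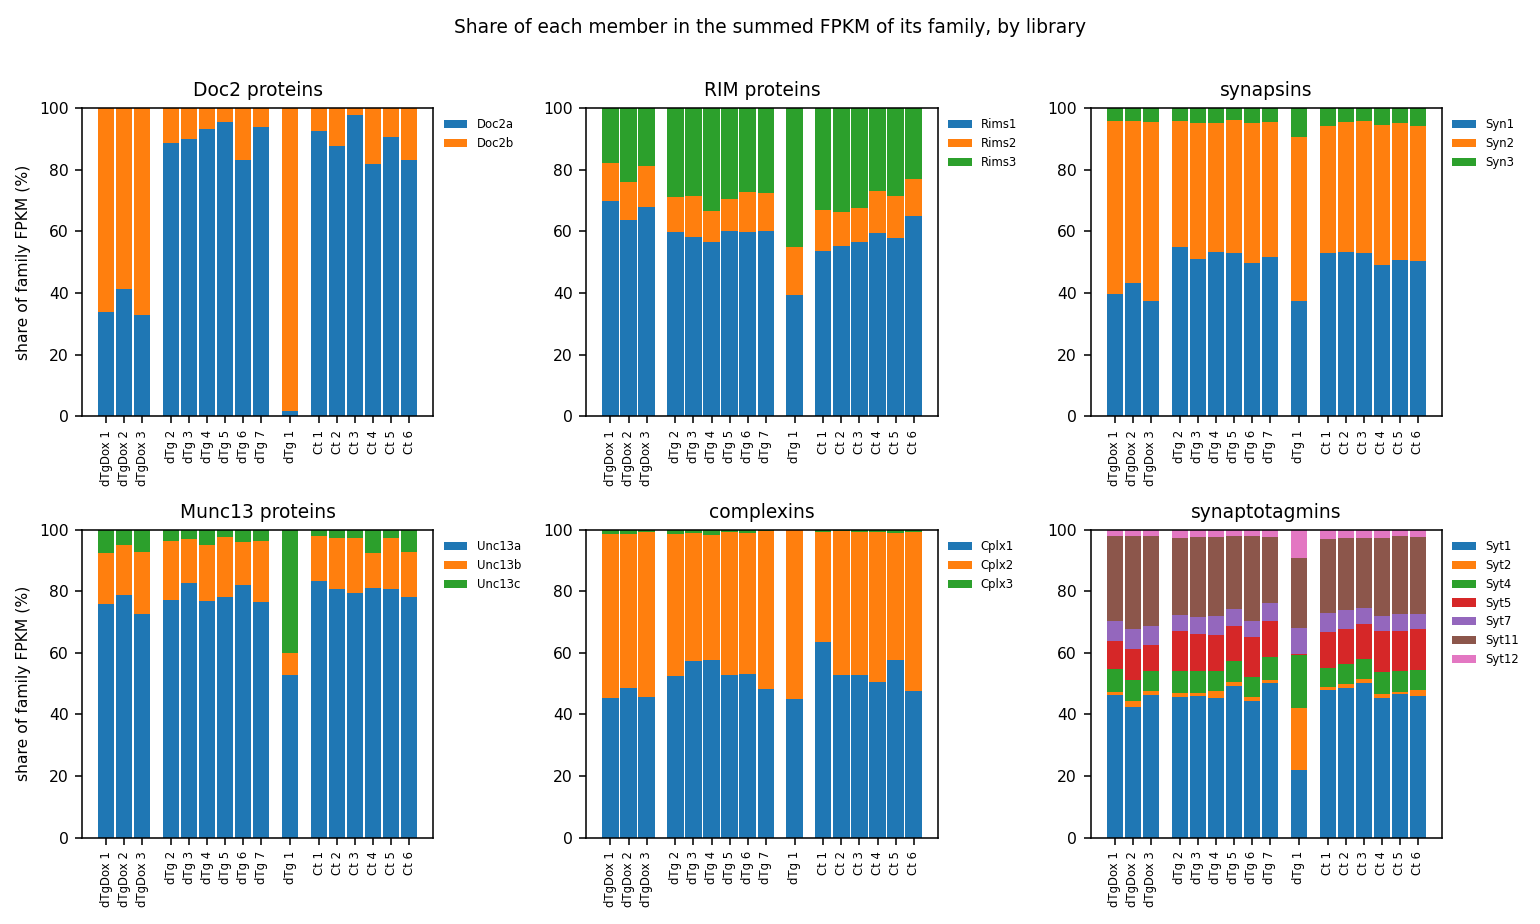
Share of each gene in the summed FPKM of its family, in percent, for 6 families. Each bar is 1 library, with dTgDox on the left, then dTg, dTg replicate 1 and Ct. Doc2b takes 58.8% to 67.0% of the Doc2 sum in dTgDox and 18.03% or less in dTg and Ct.

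SV2 proteins are transporter-like glycoproteins of the vesicle membrane, and Sv2a is the binding site of the drug levetiracetam. Sv2b (ENSMUSG00000053025, chromosome 7, 75114894 to 75309262) had 103, 81.1 and 101 FPKM in dTgDox and 114, 127 and 159 FPKM as lowest, median and highest value in Ct. The difference from Ct was -0.45 (SE 0.15, limma adjusted p = 0.0404). In dTg it ranged from 89.2 to 152 FPKM, overlapped with dTgDox and was not called (-0.39, limma adjusted p = 0.0778). Sv2a differed by -0.12 from dTg and from Ct. Sv2c, the form of basal ganglia and brainstem, had 3.90 to 4.56 FPKM in dTgDox, 3.51 to 8.29 FPKM in dTg and 3.91 to 13.5 FPKM in Ct, and was not called. Its highest values were 8.29 FPKM in dTg replicate 6 and 13.5 and 10.2 FPKM in Ct replicates 4 and 6, whose striatal marker levels were 4.84, 5.54 and 5.70 in that order. The order did not hold throughout. Ct replicate 1, with a striatal level of 2.84, had 7.10 FPKM. Lower values, 5.48 and 6.37 FPKM, stood in dTg replicates 2 and 3, with striatal levels of 4.82 and 4.13. The cause was not tested.

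The vesicle protein synaptophysin, the vesicular glutamate transporters and the Rab3 GTPases were not called. Syp had 505 to 558 FPKM in dTgDox, 508 to 712 FPKM in dTg and 562 to 765 FPKM in Ct, so the dTgDox libraries lay below all Ct libraries but not below all dTg libraries. Slc17a7, the transporter VGLUT1 of cortical neurons, had 403 to 432 FPKM in dTgDox, 415 to 559 FPKM in dTg and 400.3 to 587 FPKM in Ct. Slc17a6, the thalamic and brainstem transporter VGLUT2, made up 1.84% ± 0.449 of the pair in dTgDox (SD, n = 3), 0.913% ± 0.455 in dTg and 1.10% ± 0.612 in Ct (SD, n = 6 each), with a difference in level of 0.86 from dTg (SE 0.39, limma adjusted p = 0.139). Rab3a, the most abundant Rab3, differed by -0.11 (SE 0.06), Rab3b by -0.25 (SE 0.18) and Rab3c by 0.27 (SE 0.13).

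The endocytic genes Synj1, Dnm1, Sh3gl2 and Amph were not called in either dTgDox comparison. Synj1, the gene of a lipid phosphatase, had an unadjusted limma p under 0.05 against Ct, where it differed by 0.14 (SE 0.06, limma adjusted p = 0.129). Dnm1, which encodes the dynamin of nerve terminals, differed by -0.06 from dTg. Sh3gl2, the gene of endophilin A1, differed by -0.10, and Amph, the gene of amphiphysin, by 0.14.

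Balance within families was measured as the log2 ratio of each member to a base member, in 23 ratios, and compared between groups by an exact permutation test, two-sided, with adjustment over the 23. With 3 against 6 libraries the smallest p possible is 0.0238. After adjustment over the 23, a ratio could then pass 0.05 only if many ratios reached that floor together. A lack of calls in the dTgDox comparisons therefore cannot show an unchanged balance. No ratio passed the adjusted threshold of 0.05 in any comparison, and the smallest adjusted exact p was 0.11 and 0.137 in the dTgDox comparisons. Of the 23 ratios 9 had an unadjusted exact p under 0.05 against dTg, 7 against Ct and 0 in dTg against Ct. Of all tested single genes 32.0%, 32.6% and 3.18% had an unadjusted limma p under 0.05 in the same order. Groups separated without overlap in 5 ratios against dTg and 4 against Ct, beside 22.2% and 23.4% of all tested single genes. Ratios with the same base member are not independent, and shares over ratios of other genes were not computed. The ratio Doc2b/Doc2a was 4.04 higher on the log2 scale in dTgDox than in dTg and 3.91 higher than in Ct. Its values were 0.50 to 0.99 in dTgDox, -4.10 to -2.199 in dTg and -5.01 to -2.12 in Ct, so the sign of the ratio separated dTgDox from the 12 dTg and Ct libraries. The ratio Syn2/Syn1 was 0.28 to 0.63 in dTgDox, -0.42 to -0.14 in dTg and -0.36 to -0.10 in Ct, a difference of 0.74 and 0.72. Against dTg the ratios Syn3/Syn1, Rims3/Rims1 and Unc13c/Unc13a also separated without overlap, at 0.34, -0.71 and 0.88. Against Ct the others that did were Syt7/Syt1 and Syt11/Syt1, at 0.30 and 0.33. Each of these had the smallest exact permutation p that the design allows.

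A companion list of 117 further genes of fusion, calcium sensing, vesicles, active zone and recycling was read beside the 44, and 115 were tested. Against dTg 10 rose and 21 fell in dTgDox, and against Ct 9 rose and 25 fell. The median difference was -0.08 in each. Those that rose were 8.70% of the companions against dTg and 7.83% against Ct, beside 9.65% and 9.86% of all tested genes, and those that fell 18.3% and 21.7%, beside 9.22% and 9.85%. Against dTg 8 of the 21 active zone scaffold genes fell and 2 rose, with a median of -0.28. In the fusion machinery 2 of 23 fell and 1 rose, and among vesicle proteins and transporters 3 of 30 fell and 1 rose, with medians of -0.0041 and -0.00044. Among calcium sensors 3 of 12 fell and 2 rose, and in vesicle recycling 5 of 29 fell and 4 rose, with medians of -0.16 and -0.05. The scaffold genes that fell include Lin7a and Cask, adaptors of 1 complex, at -0.69 and -0.73 (SE 0.07 and 0.11, limma adjusted p = 2.07e-05 and 0.00042), and 3 neurexins, presynaptic adhesion receptors. The scaffold genes that rose were Ppfia4 and Ppfia2, liprins-alpha of the active zone, at 0.93 and 0.60 (SE 0.12 and 0.10, limma adjusted p = 0.000118 and 0.000535). Eps15, an endocytic adaptor, had 101, 101 and 109 FPKM in dTgDox and 75.3 to 90.2 FPKM in dTg, a difference of 0.32 (limma adjusted p = 0.00693). In dTg against Ct 0 of the 115 were called by limma.

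The library set apart, dTg replicate 1, had a cerebellar marker level of 7.41 on the log2 scale, against 1.19 to 2.41 in the other 15, and a level of cortical excitatory markers of 1.35. As a single library it gives a description without a test. Of the 44 genes 9 lay above all 15 other libraries, beside 28.5% of all tested genes, 23 below all, beside 26.3%, and 12 within their range. Syt2 stood at 112 FPKM in it, against 10.5 ± 3.30 FPKM in Ct (SD, n = 6), and Unc13c, the Munc13 of cerebellum, at 26.6 FPKM, against 3.99 ± 2.36 FPKM. Stx1a stood at 0.95 FPKM, Syt5 at 1.13 FPKM, Doc2a at 0.363 FPKM and Cplx3 at 0.454 FPKM. Those 4 were at 145, 103, 37.9 and 4.15 FPKM on average in Ct. Doc2b was at 20.9 FPKM, a level that lies inside the dTgDox range. Within families the low and high members stood side by side, with Syt2 above all libraries and Syt1, at 122 FPKM, below all, and Unc13c above all and Unc13a, at 34.9 FPKM, below all. Sv2a, at 144 FPKM against 128.7 to 159.8 FPKM in Ct, lay within the range.

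**Figure D5:**
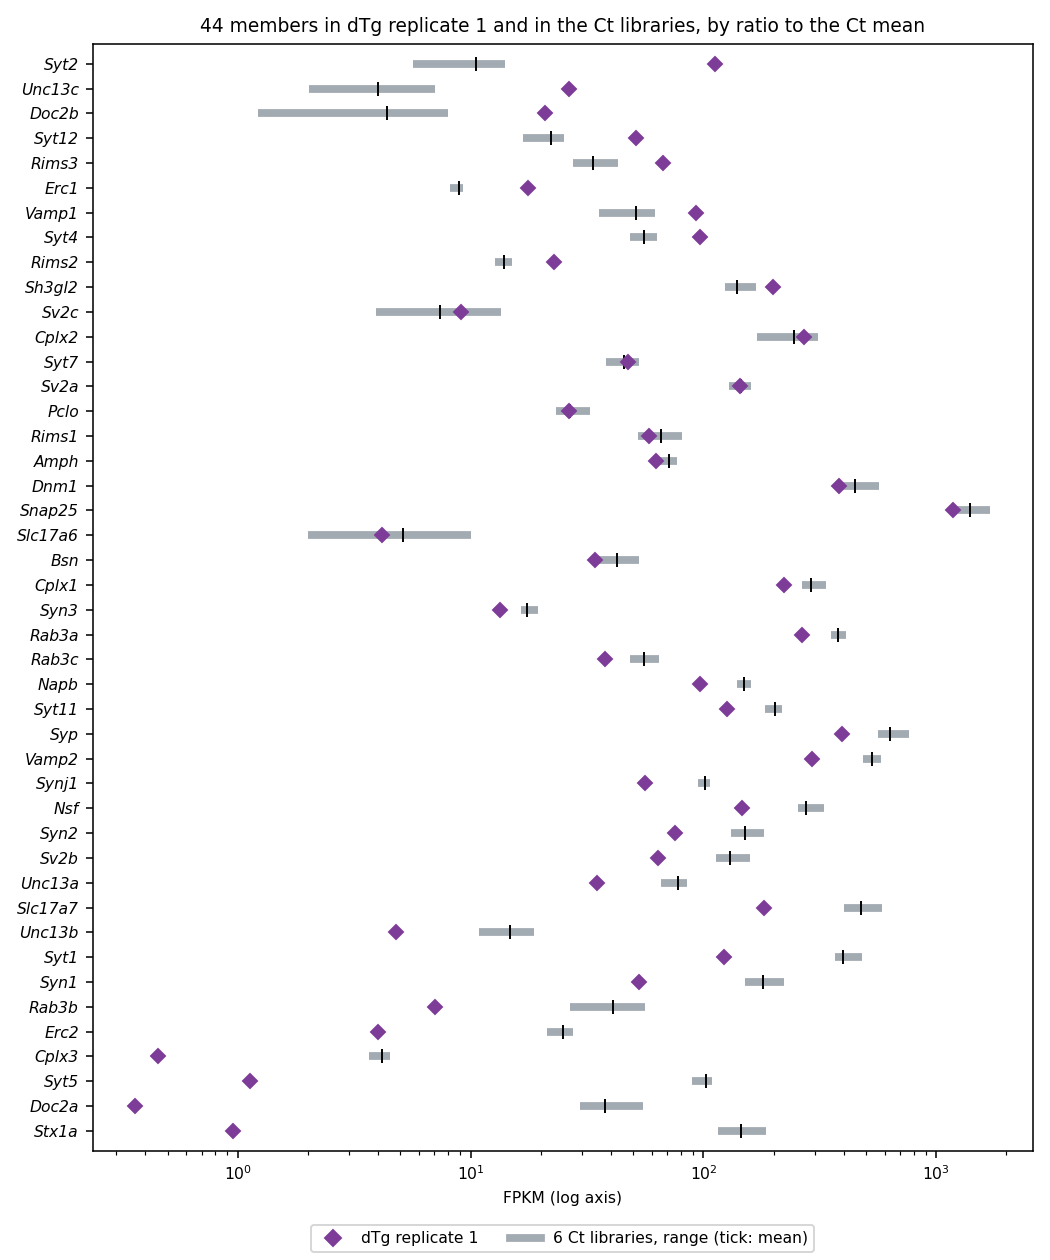
FPKM on a log axis of the 44 genes in dTg replicate 1 (diamonds) and in the 6 Ct libraries (bars from lowest to highest, tick at the mean), ordered by the ratio of dTg replicate 1 to the Ct mean. Syt2 and Unc13c are furthest above Ct and Stx1a and Doc2a furthest below.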

How the data were processed

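Polyadenylated RNA of frontal cortex was measured in 17 samples, of which 16 are distinct. Each deposited file holds FPKM per Ensembl gene, made by the authors. Per the submitters' processing notes the tools included DESeq and TopHat2. Tool versions, genome build, annotation, quantifier and strand setting were not given in the sources used here. RIN values were 8 to 8.9 per the labels' protocols. Counts were not used here, so the depths given are estimates from the step of 1 read in single-exon genes. The files do not pair identifiers with names, and symbols came from GENCODE M21, which named 45225 of 46073 identifiers.

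Values were analysed as log2(FPKM + 0.5) in limma 3.58.1 (R 4.3.3), with genes at 0.5 FPKM or more in at least 3 of 15 libraries, 1 mean per group, and empirical Bayes moderation with trend and robust settings. The pseudocount pulls differences of low genes toward 0. P-values are two-sided, with Benjamini-Hochberg adjustment over 19064 genes, and the comparisons share libraries. The fit was tested on simulated data. Exact permutation tests used scipy 1.17.1. The members, the companion and marker lists and the alternatives were chosen with earlier results of these data known. All 44 members are accounted for. Values by library are given for members called in at least 1 comparison, and companions are named by the 3 smallest adjusted p per direction, of which 1 is not reported here. Other companions and members given by library, among them Rims4 and Cplx2, were chosen after their values were seen. Sites were searched in the 3' untranslated regions of GENCODE M21, and promoters, shown for families with called and uncalled members, and the microRNA come from RefSeq.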

Additional observations from a re-analysis of the deposited data

Results flagged for a closer look

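In groups of 6, a library was marked where its gap to the nearest other library was large against the range of the group. Of 88 such checks of the 44 genes in dTg and Ct, 3 were marked, and chance alone marks about 1 in 20. Syt2 was at 19.6 FPKM in dTg replicate 4, and the next dTg library was at 9.96 FPKM. Syn3 was at 19.4 FPKM in Ct replicate 1, next to 17.6 FPKM, and Nsf at 329 FPKM in Ct replicate 3, next to 279 FPKM. In the library deposited under 2 labels, which the reported comparisons leave out, 9 of the 44 genes stood above all other libraries, beside 28.5% of all tested genes. The 9 were Syt2 at 112 FPKM, Syt4 at 97.1, Syt12 at 51.5, Vamp1 at 93.3, Rims2 at 22.8, Rims3 at 66.7, Unc13c at 26.6, Erc1 at 17.6 and Sh3gl2 at 198 FPKM. The highest Ct values of these genes were 14.1, 63.4, 25.1, 62.1, 15.03, 43.2, 7.04, 9.29 and 168 FPKM in the same order. Values above those were reached in dTg by Syt2 (19.6), Syt4 (64.7), Vamp1 (67.1), Rims2 (16.6) and Rims3 (54.2 FPKM). In dTgDox Erc1 reached 9.50 FPKM. The cerebellar marker level of that library was 7.41, against 1.61 or less in Ct.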

How the results depend on the processing

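Each count was recomputed under 28 alternatives. Counts of lower members in dTgDox were 10 against dTg and 12 against Ct, and of higher members 1 and 1. With the doubly deposited library in dTg, 1 member was lower against dTg and 2 against Ct, and 2 and 3 of the called members remained, Doc2b among them in both. That library also turned the difference of Syt5 against dTg to 0.20 (limma adjusted p = 0.932), by its value of 1.13 FPKM. In the fit with a replicate block 6 were lower and 1 higher against dTg, and 9 lower and 2 higher against Ct. No same-numbered pair correlated above 0.080. That value, of dTgDox and dTg replicate 3, exceeded the highest other correlation, 0.022, and the other same-numbered pairs did not exceed theirs. Such correlations cannot exclude that replicate numbers pair some samples. With each compared pair of groups fitted alone, 2 were higher and 11 lower against dTg. Without Ct replicates 4 and 6 and dTgDox replicate 3, chosen after seeing the data, 5 were lower against dTg, and 2 were higher against Ct. With dTg replicates 5 to 7 averaged into 1 sample, also chosen after seeing the data, 8 were lower against dTg and 12 against Ct. The calls of Syt1 and Vamp2 against dTg were lost there. Leaving out 1 library at a time gave 1 to 2 higher and 5 to 11 lower against dTg, and 1 to 3 higher and 7 to 12 lower against Ct. The counts of higher members moved without dTg replicate 5 or dTgDox replicate 2, to 2 each against dTg, and without Ct replicate 3 or dTgDox replicate 2, to 2 and 3 against Ct. Without dTgDox replicate 2 or 3, 7 were lower against Ct. The lowest count came without dTgDox replicate 3, at 5 against dTg, where the calls of Rims2, Syn1, Syt1, Syt12 and Vamp2 were lost. Doc2a, Doc2b, Stx1a, Syt5, Unc13a and Rims3 were called in both comparisons whichever single library was left out. Vamp2 against dTg and Sv2b against Ct were called in 12 and 14 of the 28 alternatives, and the cause was not tested. In dTg against Ct all counts were 0.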

Other observations

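Slc30a3, the gene of the vesicle zinc transporter ZnT3, was called lower in dTgDox in both comparisons. It is a companion chosen after its values were seen, and it is also on the list of cortical excitatory neuron markers. It had 34.0 ± 4.71 FPKM in dTgDox (SD, n = 3), 73.1 ± 13.7 FPKM in dTg and 75.7 ± 23.3 FPKM in Ct (SD, n = 6 each), with differences of -1.08 and -1.10 (limma adjusted p = 0.00241 and 0.00204).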
